A study of Mus musculus with 48 samples.

Results

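*Blnk* and *Pdlim1* are 2 of the 24421 genes in the count table, and they lie near each other on mouse chromosome 19. The pair was selected on measured values of these data, namely that both genes moved in opposite directions in the knockout mice of the 2 lines. The criterion names no state. The basal contrasts were taken as those that chose the pair and are described without a test. The tests below use the libraries taken after open field exposure, which come from other mice, but their results were known when the pair was chosen, so the p-values of the pair are not independent evidence of the opposite directions. *Blnk* and *Pdlim1* were read from the table by symbol, and both passed the filter on low counts in each comparison.

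RNA was sequenced from the hippocampal Cornu Ammonis (CA) of 48 male mice labelled 8 weeks old, 1 library per mouse. Both lines come from mice with a floxed cannabinoid receptor gene (CB1f/f). In Glu-CB1-KO mice (nex-cre x CB1f/f) Cre under nex1 elements deletes the receptor from glutamatergic neurons, and in GABA-CB1-KO mice (dlx5/6-cre x CB1f/f) Cre under dlx5/6 elements deletes it from GABAergic neurons. The CB1-WT mice are littermates with the strain label of their line, and the sources used here do not give which of the cre and floxed alleles they carry, while each genotype was taken at rest (basal) or after 5 min in an open field. In the Glu-CB1 line 5 WT and 7 KO mice were sequenced in each state. In the GABA-CB1 line there were 6 of each genotype at rest, and 7 WT and 5 KO mice after open field. The other cells of the tissue keep the receptor, and the RNA is that of the whole tissue piece, so fewer cells of a type and less RNA per cell cannot be told apart.

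BLNK (B-cell linker, also SLP-65) is an adaptor protein best known from B lymphocytes, where the kinase SYK phosphorylates it and it brings BTK and phospholipase C gamma to the B cell receptor. PDLIM1 (CLP-36) is a cytoskeletal protein with a PDZ domain, which binds alpha-actinin on actin fibres, and a LIM domain. CB1, encoded by *Cnr1*, is the receptor through which endocannabinoids lower transmitter release from axon terminals, and in the hippocampus both excitatory and inhibitory terminals carry it.

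*Blnk* spans chr19:40928927-40994535 (mm10) on the minus strand, with 17 annotated exons and 2097 exonic bp. *Pdlim1* spans chr19:40222239-40271616 on the same strand, with 7 exons and 1505 exonic bp. A stretch of 657310 bp separates them, and no other gene shares exon bases with either, so their reads are not split with an overlapping gene. The RefSeq start of *Blnk* used for its promoter window lies 314 bp inside the end of the span given above, and that of *Pdlim1* is at its end. The windows from 250 bases before to 50 after the RefSeq start of each gene (GRCm38.p6, the assembly of mm10) are shown in short pieces, since the members moved together and a reader may want to compare their starts. In the *Blnk* window the octamer core TTTGCAT and the ETS site AGGAAGT, both known from genes of blood cells, occur 1 time each. Their first bases are at −129 and −202 from the RefSeq start, and both pieces lie within the span of the gene in the table. In the *Pdlim1* window the GC box GGGCGG occurs 6 times. Capitals mark the motif in each 5′ to 3′ piece on the gene's strand.
*Blnk* octamer core, chr19:40994332-40994361: actggaagggaTTTGCATgcccaataaggt
*Blnk* ETS site, chr19:40994405-40994434: ttgggacaaacAGGAAGTagtgctcagtca
*Pdlim1* GC box, chr19:40271718-40271747: ggctgtgggtaGGGCGGgaggaggtgcggg
*Pdlim1* GC box, chr19:40271702-40271731: ggaggaggtgcGGGCGGaggttcggggctg
Both strands were searched. Among 32851 windows of this length, 4.63% hold the octamer core, 9.35% the ETS site and 35.7% a GC box. The *Pdlim1* window has no match to the first and second of these and the *Blnk* window none to the GC box. The E-box CANNTG occurs 3 times in the *Blnk* window and 0 times in that of *Pdlim1* (72.3% of windows hold it), while the AP-1 site TGANTCA and the CRE core TGACG occur in neither (7.81% and 20.8%). The GC content is 50% for *Blnk* and 65.7% for *Pdlim1*, against a median of 52.7% over the windows. These matches are letters in a window, and the motifs were chosen after the sequences were seen.

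The total count on genes was 25892654 to 34091080 per library. *Blnk* received 71 to 274 reads per library and *Pdlim1* 28 to 162, so a single library's value carries sizeable counting error, and the SDs below hold both that error and the variation from mouse to mouse. *Cnr1* was checked first. In the Glu-CB1 line it was at 208 to 248 CPM (counts scaled by library size and TMM factors over the 48 libraries) in KO and at 338 to 412 in WT libraries at rest, and at 204 to 249 against 330 to 396 after open field. The GABA-CB1 line had it at 141 to 158 against 311 to 389 CPM at rest and at 100 to 155 against 336 to 394 after open field, so each library matched its genotype label.

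Both genes are expressed at a low level in this tissue. Per kilobase of exon, the mean level over the 48 libraries was 2.14 RPKM for *Blnk* and 1.85 RPKM for *Pdlim1*, and 28.1% and 26% of the 15570 genes that passed the filter were lower. Ordered by mean CPM, the 8 groups fell into the same 3 tiers for both genes. The 2 Glu-CB1-KO groups were at the top, the 4 CB1-WT groups in the middle and the 2 GABA-CB1-KO groups at the bottom. For *Blnk* the order was Glu-CB1-KO basal (6.26 ± 1.47 CPM, SD, n = 7), Glu-CB1-KO open field (5.74 ± 0.37, n = 7), Glu-CB1-WT open field (4.68 ± 0.59, n = 5), GABA-CB1-WT basal (4.55 ± 0.61, n = 6), GABA-CB1-WT open field (4.30 ± 0.60, n = 7), Glu-CB1-WT basal (3.88 ± 0.75, n = 5), GABA-CB1-KO open field (3.09 ± 0.42, n = 5) and GABA-CB1-KO basal (2.66 ± 0.34, n = 6). Any 2 neighbours in that order had libraries that overlapped. For *Pdlim1* the order was Glu-CB1-KO open field (4.16 ± 0.72 CPM, n = 7), Glu-CB1-KO basal (3.87 ± 0.65, n = 7), GABA-CB1-WT open field (2.75 ± 0.22, n = 7), Glu-CB1-WT open field (2.72 ± 0.27, n = 5), GABA-CB1-WT basal (2.59 ± 0.32, n = 6), Glu-CB1-WT basal (2.53 ± 0.47, n = 5), GABA-CB1-KO basal (1.62 ± 0.30, n = 6) and GABA-CB1-KO open field (1.31 ± 0.14, n = 5). Here the libraries did not overlap at either step between tiers, from Glu-CB1-KO basal to GABA-CB1-WT open field and from Glu-CB1-WT basal to GABA-CB1-KO basal, and overlapped at the other steps. Over 15570 genes, 0.128% and 0.475% did not overlap in these directions, and both steps include basal libraries that chose the pair.

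**Figure D1:**
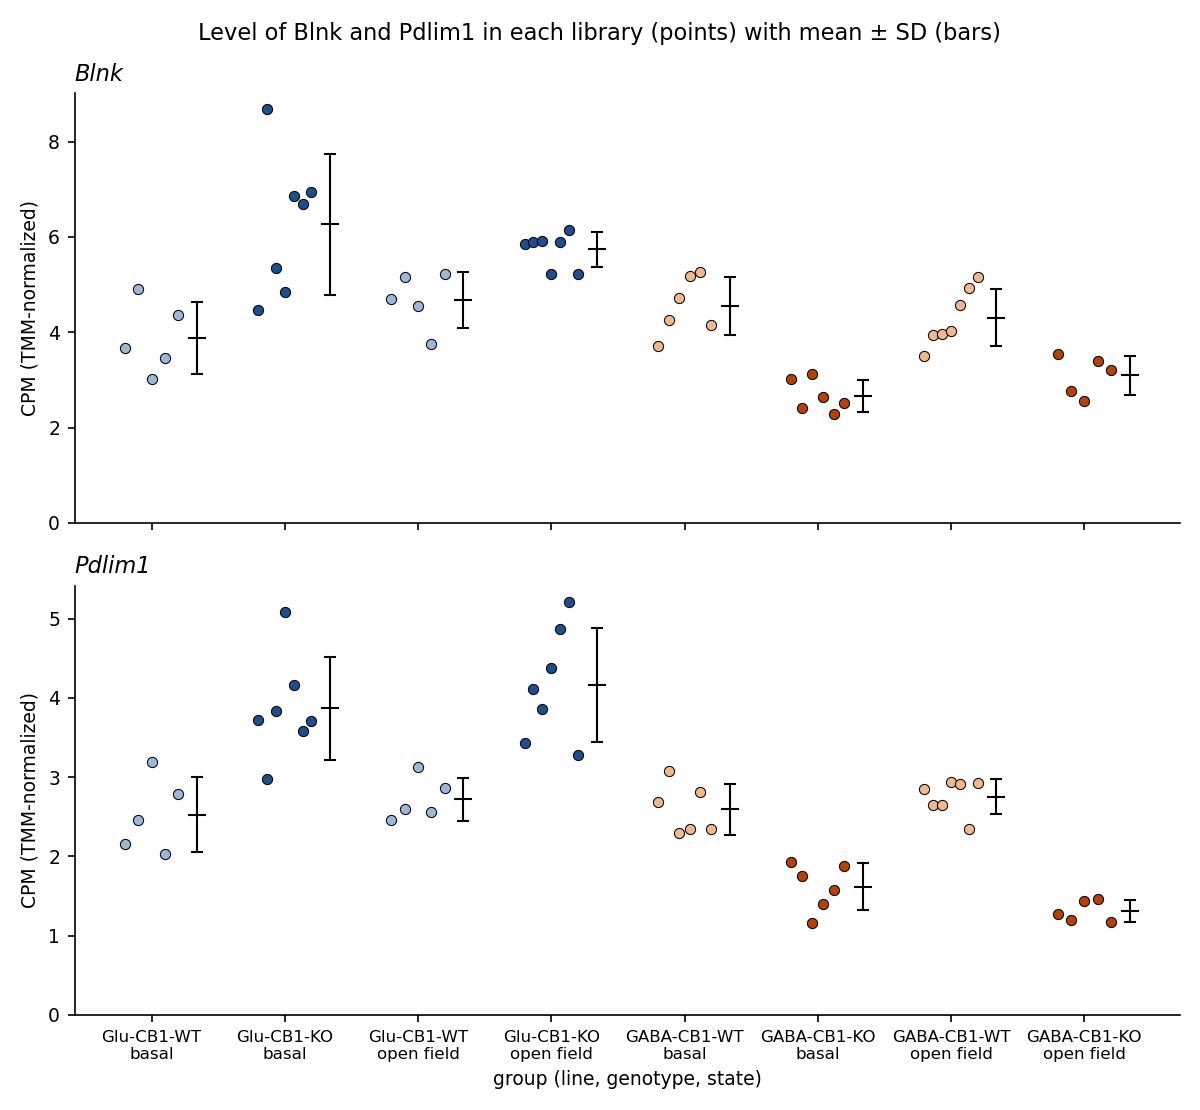
Level of *Blnk* (top) and *Pdlim1* (bottom) in CPM (y axis, from 0) in the 8 groups (x axis), 1 point per library, with the mean ± SD of each group as a bar beside its points. The *Pdlim1* libraries of GABA-CB1-KO mice lie between 1.16 and 1.93 CPM, below each CB1-WT library, of which the lowest is at 2.04 CPM (0.0193% of 15570 genes show this), with the basal libraries that chose the pair included.

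At rest, in the contrasts that chose the pair, *Blnk* was at 3.66, 4.90, 3.01, 3.45 and 4.36 CPM in the 5 Glu-CB1-WT libraries and between 4.46 and 8.69 (median 6.68) in the 7 Glu-CB1-KO libraries. The groups overlapped, and 5 of 7 KO libraries lay above each WT library. In the GABA-CB1 line *Blnk* was between 3.71 and 5.26 CPM (median 4.49) in 6 WT and between 2.28 and 3.12 (median 2.57) in 6 KO libraries, which did not overlap. *Pdlim1* was at 2.16, 2.47, 3.20, 2.04 and 2.79 CPM in Glu-CB1-WT and between 2.98 and 5.09 (median 3.72) in Glu-CB1-KO libraries, with 6 of 7 KO libraries above each WT library. In GABA-CB1 mice it was between 2.29 and 3.08 CPM (median 2.51) in WT and between 1.16 and 1.93 (median 1.67) in KO libraries, again without overlap. Over all genes, 0.192% of the 15138 tested did not overlap in the Glu-CB1 and 0.709% of 15082 in the GABA-CB1 comparison. The fitted log2 fold changes of KO against WT at rest were 0.70 for *Blnk* and 0.61 for *Pdlim1* in the Glu-CB1 line and −0.78 and −0.67 in the GABA-CB1 line. Since these values selected the pair, they are given without a test.

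After open field exposure, *Pdlim1* was higher in each Glu-CB1-KO library than in any WT library, but the difference missed the threshold by a small margin. The Glu-CB1-WT libraries were at 2.46, 2.59, 3.13, 2.56 and 2.86 CPM. The 7 Glu-CB1-KO libraries ranged from 3.28 to 5.22 CPM with a median of 4.11. All KO libraries thus lay above all WT libraries, which held for 0.458% of the 15078 genes tested in this direction. The log2 fold change was 0.62 (standard error 0.12, a 1.53-fold difference) with an adjusted p of 0.0544 (edgeR's quasi-likelihood test, Benjamini-Hochberg over all genes), beside 0.272% of genes called in the comparison. The call depends on the tool and the libraries in the fit: the adjusted p was 0.00165 with DESeq2 (0.792% of genes called), 0.00904 in a fit of all 48 libraries (0.18% called) and 0.0347 without Glu-CB1-KO replicate 7, but up to 0.191 in the other 11 fits that left out 1 library (without Glu-CB1-WT replicate 4).

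*Blnk* in the same mice was at 4.70, 5.15, 4.55, 3.76 and 5.22 CPM in the Glu-CB1-WT libraries. In the Glu-CB1-KO libraries it ranged from 5.22 to 6.15 CPM with a median of 5.89. Of these, 5 of 7 lay above all WT libraries and the others just below the highest of them. The log2 fold change of 0.29 (standard error 0.09, 1.23-fold) did not pass the test (adjusted p = 0.311, edgeR).

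In the GABA-CB1 line after open field exposure *Pdlim1* fell in the KO mice and was called. The 7 GABA-CB1-WT libraries ranged from 2.35 to 2.94 CPM with a median of 2.86. The 5 GABA-CB1-KO libraries were at 1.27, 1.19, 1.44, 1.47 and 1.17 CPM. Each KO library lay below each WT library, as for 0.431% of the 15097 genes tested in this direction. The log2 fold change was −1.07 (standard error 0.11, fold 0.475) with an adjusted p of 3.66e-04 (edgeR), and 0.0199% of the genes tested were called in this comparison, 3 in all. DESeq2 gave −1.08 with a larger standard error of 0.15. With 35 to 45 reads per KO library, the edgeR standard error may be too small.

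*Blnk* ranged from 3.51 to 5.16 CPM with a median of 4.03 in the GABA-CB1-WT libraries of that state. The GABA-CB1-KO libraries were at 3.54, 2.77, 2.56, 3.39 and 3.20 CPM. Of the 5, 4 lay below all WT libraries, and the one at 3.54 CPM lay just above the lowest WT library. The log2 fold change was −0.47 (standard error 0.12, fold 0.720) and did not pass the test (adjusted p = 0.177, edgeR).

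The difference between the lines in the effect of the knockout was tested over the 24 open field libraries, with no basal library in the fit. It was 1.69 on the log2 scale for *Pdlim1* (standard error 0.16, adjusted p = 1.12e-06, edgeR) and 0.77 for *Blnk* (standard error 0.14, adjusted p = 0.00994). In all, 0.568% of the 15325 genes tested were called in this contrast. Opposite directions in the lines are also what the pair was chosen for, with these libraries' results known. Leaving out any of the 24 libraries kept both calls, with values from 1.63 to 1.74 for *Pdlim1* and from 0.70 to 0.82 for *Blnk*.

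Comparing genotypes across the lines shows the same contrast from its other side. The WT mice of both lines did not differ detectably after open field exposure: the log2 difference of Glu-CB1-WT against GABA-CB1-WT was −0.02 for *Pdlim1* (from −0.21 to 0.16 at 2 standard errors, adjusted p = 0.988) and 0.12 for *Blnk* (from −0.10 to 0.34, adjusted p = 0.955, edgeR), with 0.00664% of genes called. Glu-CB1-KO against GABA-CB1-KO mice differed by 1.67 in *Pdlim1* (standard error 0.14, adjusted p = 2.11e-05) and by 0.89 in *Blnk* (standard error 0.09, adjusted p = 3.01e-04, edgeR), with 0.404% of genes called. For both genes the KO libraries of the lines did not overlap, as for 0.616% of genes in this direction. The pair was chosen for opposite directions in these KO mice, with the results of these libraries known. Neither the tests of KO against KO nor the absence of overlap is therefore independent evidence. The Cre driver and the breeding of a line cannot be told apart in this comparison.

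**Figure D2:**
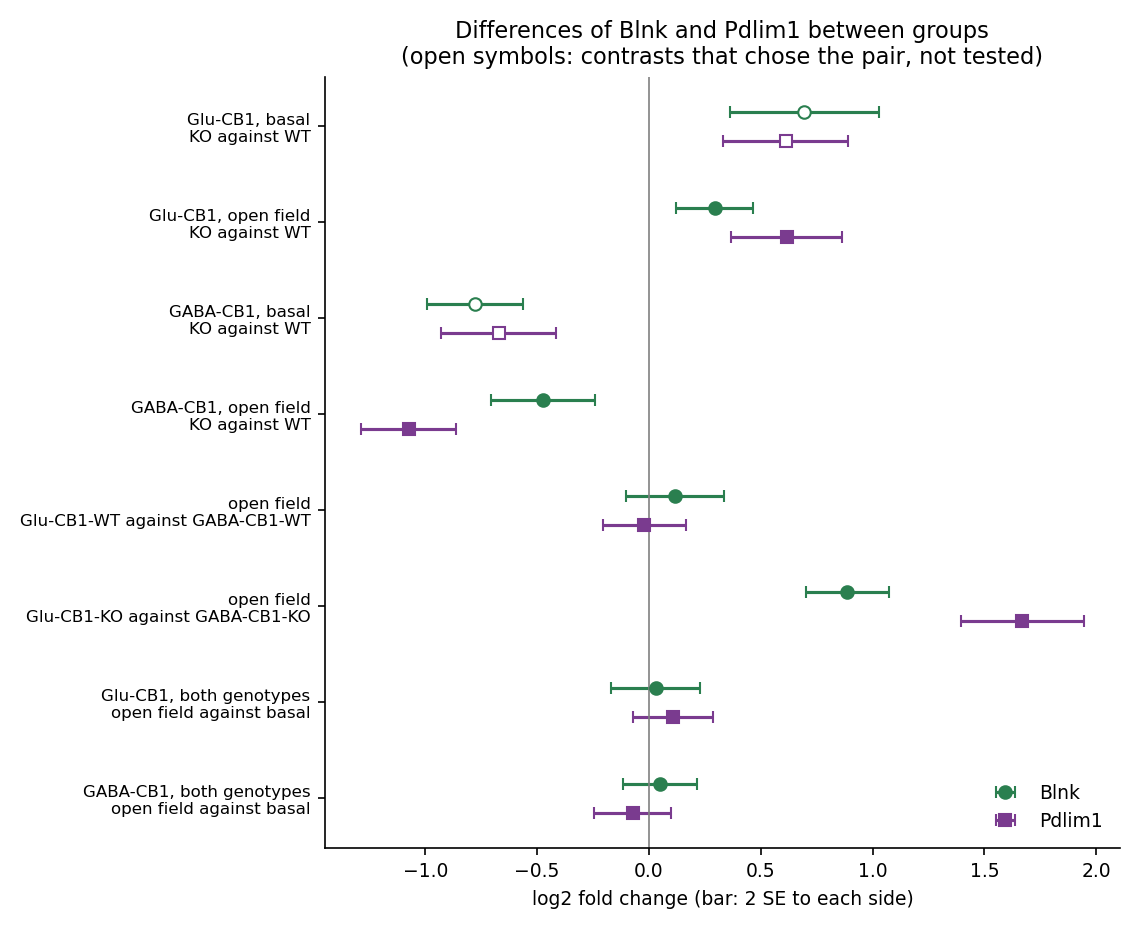
Fitted log2 fold change (x axis) of *Blnk* (circles) and *Pdlim1* (squares) in 8 comparisons (y axis), with bars of 2 standard errors to each side. Open symbols mark the basal contrasts that chose the pair, and the intervals of both genes include 0 for the WT mice across lines and for open field against basal.

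The open field itself did not detectably move the pair. Averaged over genotypes, open field against basal gave a log2 difference of 0.03 for *Blnk* (from −0.17 to 0.23 at 2 standard errors, adjusted p = 0.947, edgeR) and of 0.11 for *Pdlim1* (from −0.07 to 0.29, adjusted p = 0.676) in the Glu-CB1 line. In the GABA-CB1 line it gave 0.05 for *Blnk* (from −0.12 to 0.21, adjusted p = 0.894) and −0.07 for *Pdlim1* (from −0.25 to 0.10, adjusted p = 0.904). Over all genes, 1.8% and 0.963% were called in these contrasts. The fitted differences of KO against WT in the 2 states are set side by side as a description. In the Glu-CB1 line that of *Blnk* was 0.70 at rest and 0.29 after open field, and that of *Pdlim1* 0.61 and 0.62. In the GABA-CB1 line that of *Blnk* was −0.78 and −0.47, and that of *Pdlim1* −0.67 and −1.07. Whether they differ between states was not tested, since the basal values chose the pair.

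The numbers at the end of the sample titles, whose meaning the labels do not give, fall into a lower and a higher range in each line. Within both ranges the open field differences in mean log2 CPM kept their sign. For *Pdlim1* they were −1.09 and −0.98 in the GABA-CB1 line, and 0.68 and 0.21 in the Glu-CB1 line, where the higher range holds 1 KO and 2 WT libraries. For *Blnk* they were −0.53 and −0.37 in the GABA-CB1 line and 0.21 and 0.33 in the Glu-CB1 line. The first principal component of the 48 libraries, which holds 17.5% of the variance of 500 genes, had a Pearson r of −0.005 with *Blnk* and of −0.098 with *Pdlim1*.

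From mouse to mouse within a genotype and state, the levels of the pair showed little correlation. Over the 23 CB1-WT libraries the Pearson r of their log2 CPM was −0.007 (Spearman rho 0.009, and r 0.024 without the 2 libraries farthest from the *Blnk* median). After each gene was centred on its group mean, r was −0.22 over the 48 libraries (rho −0.14, and −0.16 without 2 libraries). In single groups of 6 or 7 mice r ranged from −0.64 in Glu-CB1-KO basal to 0.45 in Glu-CB1-KO open field. The KO libraries form separate clusters by line, so no pooled value is given for them. The counts of both genes are low, and their counting noise, separate for each gene, draws r toward 0. These values therefore cannot show whether the pair varies together from mouse to mouse.

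**Figure D3:**
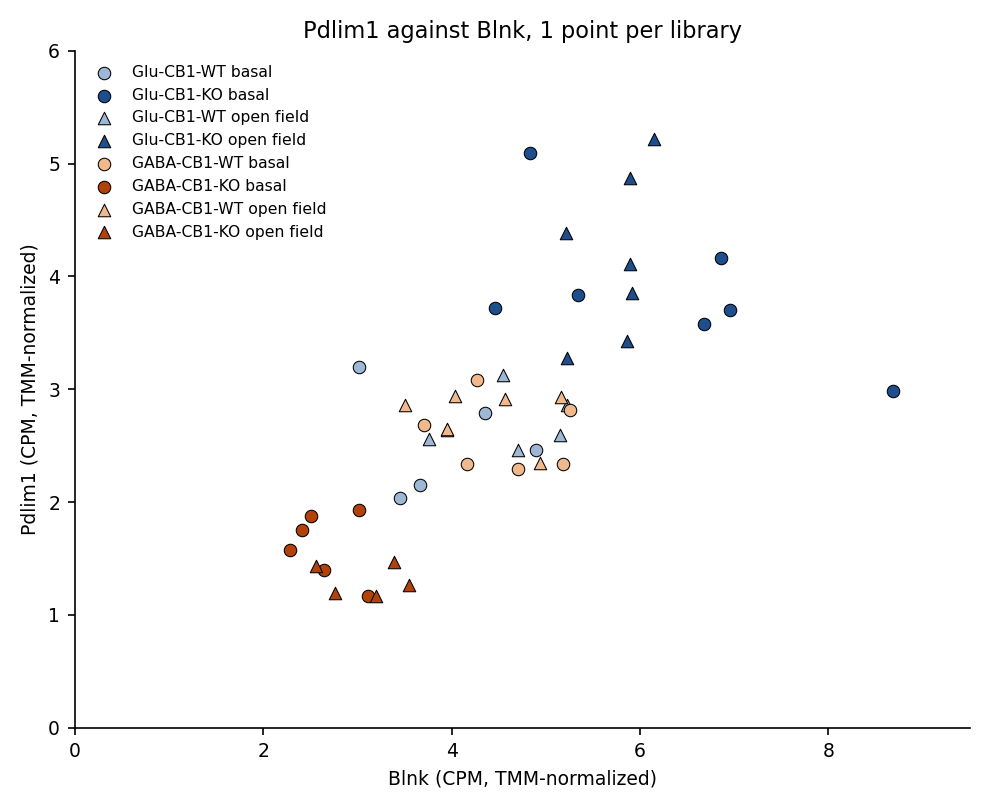
*Pdlim1* (y axis, CPM) against *Blnk* (x axis, CPM), 1 point per library, coloured by line and genotype, with circles for basal and triangles for open field. The 23 CB1-WT libraries form 1 cloud with no slope (r = −0.007), the Glu-CB1-KO libraries lie above and to the right of most of it, and the GABA-CB1-KO libraries lie below it.

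Ranked by Pearson r of log2 CPM over the 48 libraries against 15569 other genes, the closest to *Blnk* were *Tanc1*, a postsynaptic scaffold protein (r = 0.79), *Ier5*, an immediate early response gene (0.78), and *Mylk*, myosin light chain kinase (0.77), with *Pdlim1* in rank 4 (0.75). The closest to *Pdlim1* were *Lmo2*, a LIM-domain transcription cofactor (0.77), *Dner*, a transmembrane protein with EGF repeats (0.76), and *Blnk* in rank 3. Those patterns include the group differences that chose the pair. After centring on group means the closest to *Blnk* were *Glt8d2* (0.65), *Mgll*, the lipase that breaks down the endocannabinoid 2-AG (0.63), and *Medag* (0.63). The closest to *Pdlim1* were then *Rxra*, a nuclear receptor (0.58), *Galnt15* (0.57) and *Max*, the partner of MYC (0.55). On that basis *Pdlim1* was in rank 13235 for *Blnk* and *Blnk* in rank 14034 for *Pdlim1*. The genes named are the highest among 15569, so their r is raised by that selection, and no r was tested. At rest edgeR called *Tanc1* (−0.21, adjusted p = 0.0354) and *Lmo2* (−0.24, adjusted p = 0.0390) lower in GABA-CB1-KO mice (0.245% of genes). *Dner* was called in the difference between lines after open field (0.26, adjusted p = 0.0136, edgeR, 0.568% of genes). The other genes named, apart from the pair, had no call. All were picked for a pattern like the pair's, so these calls are not separate evidence. *Mgll* had log2 fold changes of KO against WT of −0.02 and 0.04 in the Glu-CB1 and GABA-CB1 lines after open field, neither called.

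No other gene around the pair passed the test. Of 65 genes within 2 Mb, between 39 and 41 were tested per comparison, and none passed an adjusted p of 0.05 in the 4 comparisons of KO against WT with edgeR or DESeq2. By edgeR, 0.0198% and 0.245% of all genes were called in the Glu-CB1 and GABA-CB1 lines at rest, and 0.272% and 0.0199% after open field. DESeq2 called 0.792% and 1.43% after open field. At these shares the absence of calls among 39 to 41 genes cannot set the neighbours apart from other genes. Unadjusted p-values under 0.05 were found for 0 of 41 and 4 of 40 in the Glu-CB1 and GABA-CB1 lines at rest, and for 2 of 40 and 5 of 39 after open field. Over all genes tested the same 4 shares were 3.57%, 8.16%, 6.97% and 13.2%. The neighbours' log2 fold changes after open field ranged from −0.26 to 0.16 in the Glu-CB1 line and from −0.27 to 0.32 in the GABA-CB1 line. In none of the 4 comparisons did a neighbour within 2 Mb change by more than the smaller of the pair. In the difference between lines after open field 1 did, the microRNA gene *Mir8091* (1.26, standard error 0.45, adjusted p = 0.267, mean 0.348 CPM, not tested in the GABA-CB1 line alone, named after its value was seen). Within 5 Mb, 3 and 2 genes exceeded the smaller of the pair after open field in the Glu-CB1 and GABA-CB1 lines, none of them called.

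Between the pair lie 8 genes of the table, of which 6 were tested. *Aldh18a1*, an enzyme of proline synthesis, had log2 fold changes of −0.002 and −0.010 in the Glu-CB1 and GABA-CB1 lines after open field, and *Tctn3*, a protein of the ciliary transition zone, 0.05 and −0.08. *Entpd1*, an ectonucleotidase also known as CD39, had 0.04 and 0.03. *Ccnj*, a cyclin, had −0.02 and −0.08. The zinc finger gene *Zfp518a*, next to *Blnk*, had −0.11 (standard error 0.12) and −0.10 (0.09). None of the 6 passed the test in any of the 4 comparisons. *E030044B06Rik* had 2 reads in all libraries together and *Mir8092* had 0, so neither was tested.

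**Figure D4:**
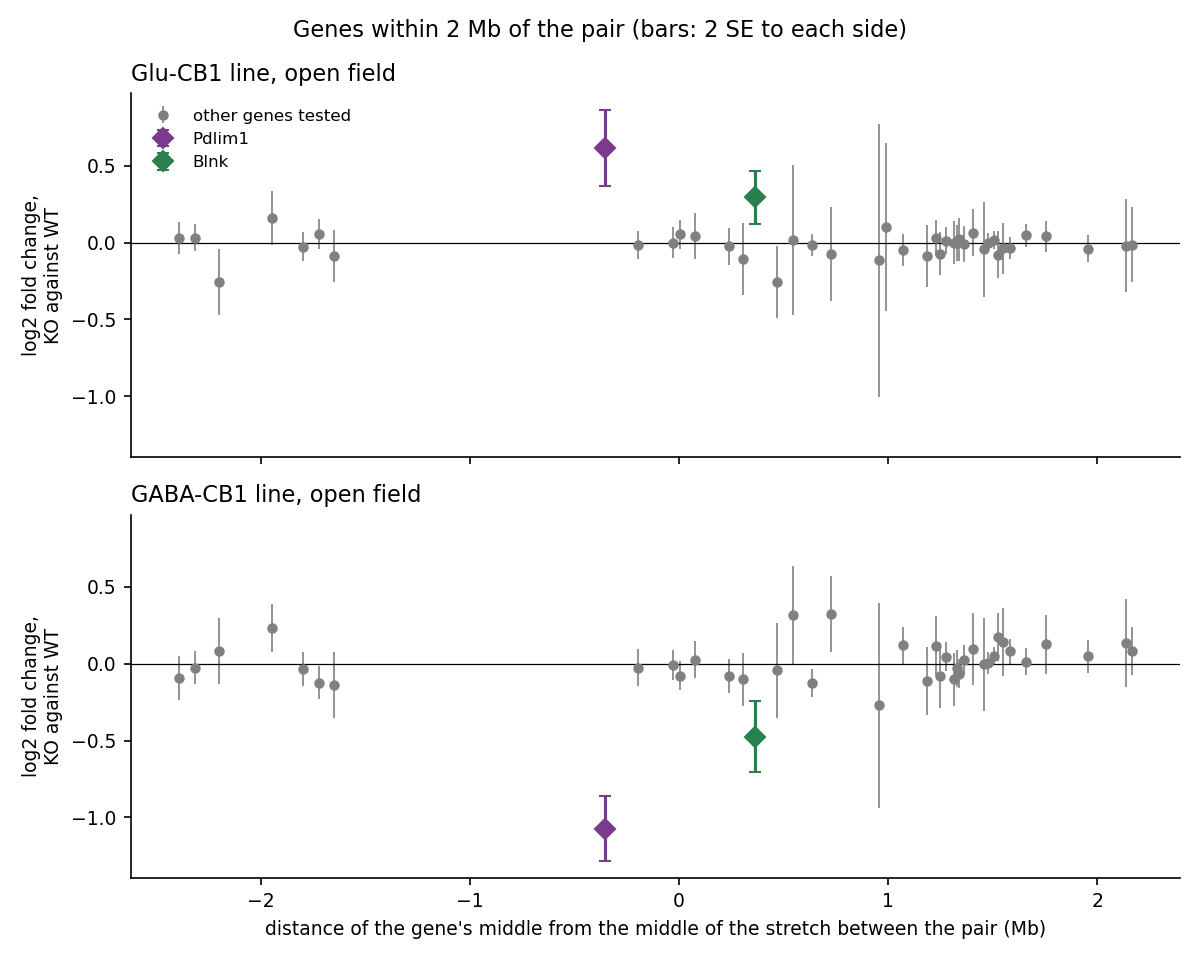
Log2 fold change of KO against WT after open field (y axis, bars of 2 standard errors to each side) of the genes tested within 2 Mb, by distance in Mb of the gene's middle from the middle of the stretch between the pair (x axis). Grey points are other genes and diamonds the pair. *Pdlim1* (0.62 and −1.07) and *Blnk* (0.29 and −0.47) lie beyond the grey points of their panels, which range from −0.27 to 0.32.

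The partners of BLNK in B cell receptor signalling, as a list of 24 genes without *Blnk*, showed no call. In each comparison 18 were tested and 0 were called with edgeR or DESeq2. Over all genes edgeR called 0.0198% and 0.245% at rest and 0.272% and 0.0199% after open field, in the Glu-CB1 and GABA-CB1 lines. DESeq2 called 0.792% and 1.43% after open field. At such shares 0 calls among 18 genes cannot set the list apart from other genes. After open field 0 and 2 of the 18 had an unadjusted p under 0.05 in the Glu-CB1 and GABA-CB1 lines (6.97% and 13.2% of all genes). Of the 18, 10 were positive and 8 negative in the Glu-CB1 line (median log2 fold change 0.01, all genes −0.002), and 9 and 9 in the GABA-CB1 line (median −0.001, all genes 0.002). At rest 12 were positive and 6 negative in the Glu-CB1 line, and 3 and 15 in the GABA-CB1 line. The more frequent sign in each line was that of *Blnk*, and its relation to *Blnk* was not tested. The medians at rest were 0.007 and −0.06, with 0 and 1 under an unadjusted p of 0.05 (3.57% and 8.16% of all genes). The 2 with the highest level per length were *Prkcb*, a protein kinase C (173 RPKM), and *Itpr1*, the IP3 receptor (69.3 RPKM), both prominent in neurons. Their log2 fold changes after open field were 0.01 and 0.06 in the Glu-CB1 and −0.09 and −0.008 in the GABA-CB1 line.

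The relatives and partners of PDLIM1, as a list of 18 PDZ-LIM, alpha-actinin and associated cytoskeletal genes without *Pdlim1*, likewise showed no call. In each comparison 17 were tested and 0 were called with edgeR or DESeq2. Over all genes edgeR called 0.0198% and 0.245% at rest and 0.272% and 0.0199% after open field, in the Glu-CB1 and GABA-CB1 lines. DESeq2 called 0.792% and 1.43% after open field. With such shares 0 calls among 17 genes do not set the list apart from other genes. After open field 1 and 0 of the 17 had an unadjusted p under 0.05 (6.97% and 13.2% of all genes). Of the 17, 6 were positive and 11 negative in the Glu-CB1 line (median −0.02), and 10 and 7 in the GABA-CB1 line (median 0.008). At rest the medians were −0.03 and −0.04, with 1 and 3 under an unadjusted p of 0.05, or 5.88% and 17.6% against 3.57% and 8.16% of all genes. The 2 with the highest level per length were *Csrp1*, a LIM protein (99.3 RPKM, log2 fold changes 0.01 and 0.007 after open field), and *Actn4*, an alpha-actinin (29.8 RPKM, −0.01 and 0.06).

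Markers of cell types were read as lists. Of 8 B cell markers, 7 were in the table and *Ighm* was not, so any RNA of *Ighm* is left out of their sum. The summed level of the 7 was 0.342 to 0.911 CPM over the libraries, below the *Blnk* level of each group. None of the 7 passed the filter on low counts. The 12 microglia markers summed to 425 to 555 CPM. None of them was called in the 4 comparisons with edgeR, which called 0.0198% to 0.272% of all genes. In the GABA-CB1 line after open field 5 had an unadjusted p under 0.05 (41.7%, against 13.2% of all genes). After open field 1 of the 12 was positive among Glu-CB1 mice and 10 among GABA-CB1 mice (medians −0.05 and 0.06), opposite in sign to *Blnk*. At rest 11 of 12 were positive in the Glu-CB1 and 12 of 12 negative in the GABA-CB1 line (medians 0.08 and −0.09), the sign of *Blnk*, and after centring on group means the list's sum had a Pearson r of 0.39 with *Blnk* and −0.20 with *Pdlim1*. In the GABA-CB1 line after open field 0 of 10 endothelial and 1 of 8 mural markers were under that p, and their medians were −0.06 and −0.12. In the tissue check, the CA1 list summed to 661 to 931 CPM, the CA3 and CA2 list to 712 to 948 CPM and the dentate granule list to 190 to 461 CPM, so dentate markers were present although that region was dissected away. The CA3 and CA2 list was negative in 6 of 7 genes in the Glu-CB1 line (median −0.16) and positive in 7 of 7 in the GABA-CB1 line (0.08) after open field, and negative in 7 of 7 in the difference between lines (−0.25), opposite in sign to the pair. After open field 3 and 3 of the 7 had an unadjusted p under 0.05 (6.97% and 13.2% of all genes), and 4 in the difference between lines (10.8%). DESeq2 called 1 in each line after open field (0.792% and 1.43% of all genes). The CA1 list had medians of 0.11 and −0.07, with 4 and 1 of 6 genes under an unadjusted p of 0.05 (6.97% and 13.2% of all genes). The part of these lists in the values of the pair was not tested. Of the CA3 and CA2, thalamus, oligodendrocyte and blood lists, named after their values were seen, *Iyd* (−0.56, adjusted p = 0.0463) and *Prkcd* (−0.58, adjusted p = 0.00309, edgeR) were called after open field, both lower in Glu-CB1-KO mice (0.272% of all genes called). *Bok*, of the CA3 and CA2 list, was called lower in GABA-CB1-KO mice at rest (0.245% of all genes). The oligodendrocyte list after open field was negative in 8 of 8 genes in the Glu-CB1 line, with 4 under an unadjusted p of 0.05 (6.97% of all genes). In the GABA-CB1 line 5 were positive and 3 negative, with 0 under that p.

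Summed interneuron markers differed in the same direction as the pair after open field. The sum of 8 was 993 to 1118 CPM in Glu-CB1-KO against 857 to 1006 CPM in Glu-CB1-WT libraries, and 924 to 964 against 990 to 1054 CPM in the GABA-CB1 line. Then 7 of 8 were positive in the Glu-CB1 and 6 of 8 negative in the GABA-CB1 line. Of these lists of 8, 5 and 4 had an unadjusted p under 0.05 (6.97% and 13.2% of all genes). At rest 8 of 8 were positive and 6 of 8 negative, with 1 and 2 under that p (3.57% and 8.16% of all genes). None was called within a line with edgeR (0.0198% to 0.272% of all genes called). After open field DESeq2 called 1 and 2 of the 8 (0.792% and 1.43% of all genes), and 2 were called in the difference between lines with edgeR (0.568%). They are named after their values were seen: *Sst*, encoding somatostatin, at 0.78 (standard error 0.12, adjusted p = 0.00108) and *Gad1*, a GABA-synthesizing enzyme, at 0.25 (0.05, adjusted p = 0.00994, edgeR). After centring on group means, the list's sum had a Pearson r of −0.26 with *Blnk* and 0.30 with *Pdlim1* over the 48 libraries. Astrocyte markers, a list of 7 with no call in the 4 comparisons, had a centred r of 0.61 with *Blnk* and −0.27 with *Pdlim1*. Choroid plexus markers reached 4042 CPM in 1 GABA-CB1-KO library after open field against 50.7 to 90.5 CPM in the WT libraries. Other groups also held high libraries, up to 1505 CPM in GABA-CB1-WT basal, 631 in Glu-CB1-KO basal and 282 in Glu-CB1-KO open field. The sum of these markers had a centred r of 0.23 with *Blnk* and −0.02 with *Pdlim1*. The part of these cell types in the differences of the pair was not tested.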

How the data were processed

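Groups were taken from the sample labels. For the open field groups of the GABA-CB1 line, the sizes in the labels are the reverse of those in the study's text, and the labels were used, since *Cnr1* was low in each library labelled KO. The authors used NuGEN Ovation kits for amplification and libraries, trimmed reads with bbduk, aligned them to mm10 with STAR 2.6.0a and counted them per gene by strand with featureCounts 1.6.2. The values the authors deposited are raw counts per gene, without normalization. The gene lengths in the same table were used for RPKM.

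Each comparison was fitted with edgeR 4.0.16 in R 4.3.3 (quasi-likelihood test, TMM, filterByExpr with default settings), and p-values were adjusted over all genes tested at a threshold of 0.05. Standard errors were derived from the F statistic, and the test was checked on simulated data. CPM were normalized over the 48 libraries, and log2 CPM for correlations used a prior count of 2. DESeq2 1.42.0 and the other alternatives are given in the closing section. Each library is 1 mouse, and no pair of libraries in a group was close enough to be a duplicate. Intervals of 2 standard errors describe the uncertainty of a fitted difference, while the spread of libraries within a group is given by the SD. Genes were named by rule: the pair, *Cnr1*, the genes between the pair (1 is not reported here), called genes within 2 Mb, the 3 genes of most similar pattern per member and basis, and of each pathway list the called genes or else the 2 of highest RPKM. The members, lists and tests were chosen with earlier results of these data known.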

Additional observations from a re-analysis of the deposited data

Results flagged for a closer look

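The effect of the knockout differed between the lines in the open field libraries for both genes, by the test of the difference itself. Opposite directions in the lines are what the pair was chosen for, and the results of these libraries were known then, so this is not independent evidence. For *Pdlim1* the difference, Glu-CB1 minus GABA-CB1, was 1.69 on the log2 scale, and each KO library of the Glu-CB1 line lay above, and each of the GABA-CB1 line below, all WT libraries of its own line. For *Blnk* it was 0.77, with 5 of 7 Glu-CB1-KO libraries above and 4 of 5 GABA-CB1-KO libraries below all WT libraries of their line. No library stood apart from its group in the 16 combinations of gene and group checked with Dixon's criterion.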

How the results depend on the processing

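Outside the basal contrasts that chose the pair, 351 of 354 alternative fits kept the sign of the value reported and 3 changed it. The 3 were values near 0: *Blnk* in open field against basal in the Glu-CB1 line without Glu-CB1-KO basal replicate 1 (−0.005) or Glu-CB1-WT basal replicate 3 (−0.012), and *Pdlim1* in Glu-CB1-WT against GABA-CB1-WT without Glu-CB1-WT replicate 1 (0.014). Leaving out 1 library at a time, the log2 fold change after open field ranged from 0.55 to 0.67 for *Pdlim1* and 0.22 to 0.34 for *Blnk* in the Glu-CB1 line, and from −1.12 to −1.04 and −0.53 to −0.41 in the GABA-CB1 line. In open field against basal in the Glu-CB1 line *Blnk* ranged from −0.012 to 0.095, and in Glu-CB1-WT against GABA-CB1-WT *Pdlim1* ranged from −0.075 to 0.014.

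In the Glu-CB1 line after open field, *Pdlim1* passed the threshold in several other fits, with log2 fold changes of 0.62 with DESeq2, 0.62 with all 48 libraries and 0.62 with the first principal component as a covariate (adjusted p = 0.0335). It did not pass with RLE size factors (adjusted p = 0.0561), without the filter (0.0508), with the range of the title number as a covariate (0.168), with the replicate block (0.225) or in 11 of 12 fits without 1 library. The principal component, and DESeq2 without independent filtering (0.62), were added after the data were seen. An exact two-sided permutation test over 792 arrangements, unadjusted, gave a difference in mean log2 CPM of 0.59 for *Pdlim1* (p = 0.00253) and 0.30 for *Blnk* (p = 0.00505), and of −0.47 for *Blnk* in the GABA-CB1 line (p = 0.00253). DESeq2 with default settings gave no adjusted p for the pair in the GABA-CB1 line after open field. Without its independent filtering *Blnk* passed there at −0.47 (adjusted p = 0.0472).

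With the replicate number as a block, *Pdlim1* in the GABA-CB1 line kept its size (−1.10) but not its call (adjusted p = 0.126), and so did *Blnk* in the difference between lines (0.68, adjusted p = 0.124). The labels do not say whether the replicate numbers mark a block. The correlation of same-numbered libraries ranged from −0.33 to 0.32, and at most 2 of 5 in a comparison correlated best with their own number. With 5 or 6 shared numbers per comparison, these values cannot decide it. No neighbouring gene was called in the 4 comparisons within 2 Mb under any setting tried, or within 1 or 5 Mb in the fits of the report. With 28 to 274 reads per gene and library, small differences could not be detected.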
